A study of Mus musculus with 6 samples.

Results

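The genes described here are 10 members of the semaphorin, plexin and neuropilin families: Sema3d, Sema4a, Sema4b, Sema4d, Sema7a, Plxnc1, Plxnd1, Plxnb2, Nrp1 and Nrp2. They were taken by gene symbol, 10 of the 47729 genes counted in each library, and all 10 matched an Ensembl gene ID of the count data. They had been picked with their values in these libraries known, so their levels and fold changes are given as a description, without p-values. RNA was sequenced from FACS-sorted DN1a/b thymocytes of C57BL/6 mice, cells at the earliest stage of thymocyte development and not yet committed to the T lineage. There were 3 groups of 2 libraries. Per the labels, mice of the RBPJ 6 days induced group lacked RBPJ until doxycycline switched its expression on, RBPJ uninduced mice were deficient in it, and Control mice had it throughout; Rbpj RNA was nevertheless counted in uninduced libraries, as given with the library totals. Doxycycline was injected at 2 mg/ml and then given in drinking water at 1 mg/ml. RBPJ is the DNA-binding protein through which activated Notch receptors switch on their target genes. The sources used here do not give the alleles that removed and restored RBPJ, the cells in which they act, or any doxycycline given to uninduced or Control mice. They also do not state that 2 libraries of 1 group are from different mice. The error estimates therefore measure the spread between these libraries, which may be partly technical, and effects of RBPJ and of doxycycline cannot be told apart.

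Semaphorins are secreted or membrane-bound ligands first known as guidance cues for growing axons. Plexins are their main receptors and act inside the cell on small GTPases, which changes integrin adhesion and the cytoskeleton. Neuropilins have short cytoplasmic tails and hold class 3 semaphorins, which are secreted, on a plexin partner, and they also bind growth factors of the VEGF family. In the thymus, semaphorins and plexins are known for roles in thymocyte migration and adhesion, and PLXND1 for guiding thymocytes in the thymic medulla.

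The proximal promoters of Sema3d, Plxnb2 and Plxnc1 are shown because these genes passed the threshold in at least 1 comparison of groups and RBPJ acts by binding DNA near its targets. A gene passed when its adjusted p was under 0.05 in edgeR's quasi-likelihood test with Benjamini-Hochberg adjustment over all 18174 genes tested. Each is the window of 250 bases before a RefSeq start, for Plxnb2 the one nearer to the GENCODE gene start (build GRCm38.p6), 5′ to 3′ on the strand of the gene: Sema3d at chr5:12382916-12383165 (plus strand), Plxnb2 at chr15:89180789-89181038 (minus strand) and Plxnc1 at chr10:94944846-94945095 (minus strand). The capitals mark GTGGGAA, part of the known RBPJ binding motif, or its core TGGGAA, searched on both strands. TGGGAA lies within GTGGGAA, so a window with the longer motif holds both.
Sema3d: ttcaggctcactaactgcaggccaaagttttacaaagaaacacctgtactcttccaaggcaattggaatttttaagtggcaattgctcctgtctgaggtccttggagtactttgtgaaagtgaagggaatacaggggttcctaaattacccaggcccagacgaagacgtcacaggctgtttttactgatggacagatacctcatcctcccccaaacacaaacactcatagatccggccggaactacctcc
Plxnb2: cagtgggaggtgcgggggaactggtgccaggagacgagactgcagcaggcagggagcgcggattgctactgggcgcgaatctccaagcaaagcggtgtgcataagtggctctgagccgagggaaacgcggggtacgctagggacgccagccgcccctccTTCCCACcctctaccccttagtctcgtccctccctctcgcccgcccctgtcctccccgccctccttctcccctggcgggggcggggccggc
Plxnc1: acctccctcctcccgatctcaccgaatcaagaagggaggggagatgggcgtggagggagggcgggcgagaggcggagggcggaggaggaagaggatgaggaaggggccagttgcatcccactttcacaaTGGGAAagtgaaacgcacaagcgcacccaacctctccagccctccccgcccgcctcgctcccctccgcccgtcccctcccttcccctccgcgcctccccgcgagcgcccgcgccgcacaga
The Sema3d window held neither motif, and its RefSeq start lies 219 bases before the GENCODE gene start. The Plxnb2 window shown held GTGGGAA on the opposite strand, read here as TTCCCAC, with its first base at position -91 from the start. A second RefSeq window of Plxnb2, at chr15:89173952-89174201, held neither motif. The Plxnc1 window held TGGGAA at position -121 without the preceding G. All 10 genes had at least 1 RefSeq window, 17 in all. GTGGGAA occurred in 1 of the 17, the Plxnb2 window shown, and in 5.42% of 32817 windows of the same length over all genes. TGGGAA occurred in 4 of the 17 (one each for Plxnb2, Plxnc1, Sema4a and Sema4d) and in 21.6% of all windows. A match describes the letters in the window and is not a measured binding site, and RBPJ binding was not measured.

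The libraries held 5098927 to 12932928 counts assigned to genes. Rbpj itself had 198 and 203 CPM (counts scaled to a common library size by TMM) in induced libraries, 28.2 and 29.98 CPM in uninduced libraries, and 74.1 and 72.9 CPM in Control libraries, lowest in the group labelled as lacking it but not at 0. Summed over the DN1 surface genes Kit, Cd44, Cd34, Flt3 and Ptprc, all with counts in every library, the level was 1998 and 2003 CPM in induced libraries, 1401 and 1051 CPM in uninduced libraries, and 2109 and 1729 CPM in Control libraries. Ptprc, which encodes the leukocyte marker CD45, was 2.23-fold lower in uninduced than in Control libraries (edgeR adjusted p = 0.00956) and 2.06-fold higher in induced than in uninduced libraries (edgeR adjusted p = 0.029). Cd44 was 1.86-fold lower in uninduced than in Control libraries (edgeR adjusted p = 0.0188), and Flt3, at 3.37-fold lower, did not pass (edgeR adjusted p = 0.0525). Kit was not lower, at 630 and 398 CPM in uninduced against 515 and 372 CPM in Control libraries (log2 fold change 0.21). Its groups overlapped, as did those of Cd34 (log2 fold change -0.84), and neither gene passed. As a sum, though not each alone, the markers of the sorted cells were lowest in the uninduced libraries. Sema3d, Sema4a, Sema4d and Plxnb2 also had their lowest levels there. The part of the sorted cells in the levels of those genes was not tested. RBPJ uninduced replicate 2 and Control replicate 2 stood apart. Summed over 8 B-lineage markers, uninduced replicate 2 had 761 CPM, against 7.01 to 40.3 CPM in the other 5. Summed over 13 markers of later thymocytes and mature T cells, Control replicate 2 had 739 CPM, against 32.3 to 155 CPM in the other 5. Control replicate 2 also had counts in 30343 genes at a total of 5311391, against 21529 genes in Control replicate 1 at 12932928.

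Markers of other lineages also differed between the groups. Summed over 10 myeloid genes, the level was 748 and 1638 CPM in induced libraries, 4359 and 3350 CPM in uninduced libraries, and 573 and 502 CPM in Control libraries, most of it from Mpo, which encodes myeloperoxidase. Of the 8 of these genes tested, 5 were higher in uninduced than in Control libraries, against 2.49% of all 18174 genes tested. Csf1r alone of the 8 had a log2 fold change below 0, at -0.27, and did not pass. S100a8 and S100a9 were at 0 in Control replicate 1. Summed over 7 mast cell and basophil genes, the level was 335 and 343 CPM in induced libraries, 885 and 571 CPM in uninduced libraries, and 83.2 and 69.2 CPM in Control libraries. Of the 6 of these tested, 5 were higher in uninduced than in Control libraries. In induced against Control 2 of the 6 were higher, against 0.187% of all genes. There 1 of 6 erythroid and 1 of 7 natural killer and innate lymphoid genes were higher as well. Fcer1a was at 0 in both Control libraries. The uninduced libraries thus had the highest myeloid and mast cell sums. The erythroid sum was 148 and 83.6 CPM in induced libraries, 181 and 539 CPM in uninduced libraries, and 0.990 and 21.1 CPM in Control libraries, with 3 of 6 genes higher in uninduced than in Control libraries. Over 13 endothelial and stromal genes the sum was 418 and 392 CPM in induced libraries, 187 and 148 CPM in uninduced libraries, and 414 and 375 CPM in Control libraries. Pdgfrb and Pecam1 made up most of that sum and were the 2 of 12 tested genes lower in uninduced than in Control libraries (log2 fold change -2.59 and -0.80), against 2.93% of all genes lower, while the endothelial cadherin gene Cdh5 was at most 2.12 CPM in any library and at 0 in induced replicate 1 and Control replicate 1. Of the 11 tested genes that mark later thymocytes or mature T cells, all had a log2 fold change below 0 in uninduced against Control. Of these 2 passed, Cd5 and Cd6. In 8 of the 11 both uninduced libraries lay below both Control libraries. Control replicate 2 was far higher than Control replicate 1 in some. Bcl11b had 5.10 and 131 CPM in Control against 5.74 and 5.68 CPM in uninduced libraries. Cd8a had 3.20 and 80.0 CPM in Control against 1.22 and 3.01 CPM in uninduced libraries. Cd6 had 8.83 and 7.64 CPM in induced libraries, 0.174 and 0.223 CPM in uninduced libraries, and 19.7 and 34.9 CPM in Control libraries. Of the remaining lists in uninduced against Control, 1 of 8 B-lineage and 1 of 7 natural killer and innate lymphoid genes were higher. Among plasmacytoid dendritic cell genes 1 of 6 was lower, and 0 of 5 conventional dendritic cell genes passed. Of all genes, 2.49% were higher and 2.93% lower in that comparison. The part of these cell types in the values of the 10 genes was not tested. In bulk RNA, fewer cells of a type and less RNA per cell cannot be told apart.

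Sema3d, a secreted class 3 semaphorin (ENSMUSG00000040254, chromosome 5, 12383385 to 12588948, plus strand, mm10), had no count in either uninduced library. It had 218 and 289 counts in induced libraries and 270 and 138 counts in Control libraries. In CPM this was 19.3 and 26.9 in induced libraries, 0 and 0 in uninduced libraries, and 20.6 and 24.4 in Control libraries. The uninduced libraries lay below all others, and the induced and Control ranges overlapped. Against a floor of 3 counts per library, which is 0.522 and 0.334 CPM in the uninduced libraries, Sema3d was at least 52.5-fold lower in uninduced than in Control libraries and at least 54.0-fold higher in induced than in uninduced libraries. Leaving out any 1 library, the first bound ran from 43.1-fold to 67.3-fold and the second from 44.3-fold to 69.1-fold; both bounds cover counting error only. Between induced libraries (23.1 ± 5.43 CPM) and Control libraries (22.5 ± 2.72 CPM; SD, n = 2 each), the log2 fold change was 0.04 with a standard error (SE) of 0.369, and its sign turned with the scaling, at -0.03 with median-ratio factors.

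**Figure D1:**
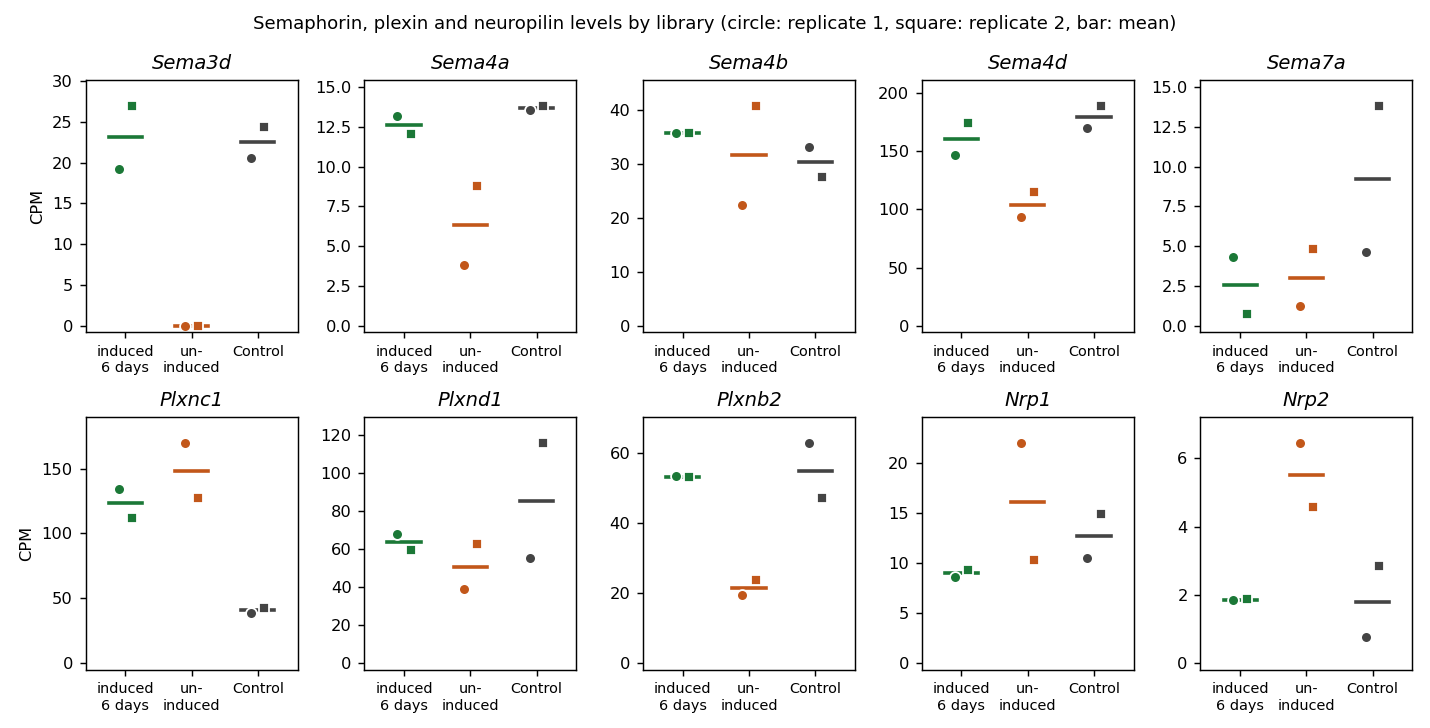
Level of each of the 10 genes in CPM (linear axes that include 0), one panel per gene and one point per library, with the induced libraries on the left, uninduced in the middle and Control on the right; bars are means of 2 libraries. Sema3d is at 0 in both uninduced libraries and between 19.3 and 26.9 CPM in the other 4, while Plxnc1 is at 38.7 and 42.6 CPM in Control libraries and above 100 CPM in the other 4.

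The class 4 semaphorins are membrane-bound. Sema4d (CD100; chromosome 13, 51685529 to 51793747, minus strand), whose product binds plexin B receptors and, on lymphocytes, CD72, had the highest level of the 10 genes in Control libraries. It had 146 and 174 CPM in induced libraries, 93.0 and 115 CPM in uninduced libraries, and 169.7 and 189 CPM in Control libraries. Both uninduced libraries were below all others. The log2 fold change was -0.78 (SE 0.195) for uninduced against Control, 0.62 (SE 0.195) for induced against uninduced and -0.16 (SE 0.193) for induced against Control. The uninduced against Control value lay just outside the threshold. It passed in 8 of 15 settings run, among them DESeq2 (-0.85), median-ratio factors (-0.85) and the fit without RBPJ uninduced replicate 2 (-0.96).

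Sema4a (chromosome 3, 88435959 to 88461182, minus strand), whose product can bind plexins B and D1 and is known for a part in T-cell priming, had the same order of levels at a far lower level. It had 13.2 and 12.0 CPM in induced libraries, 3.82 and 8.80 CPM in uninduced libraries, and 13.6 and 13.8 CPM in Control libraries. The uninduced libraries were again the lowest, with a log2 fold change of -1.10 (SE 0.473) against Control and of 0.98 (SE 0.471) for induced against uninduced, neither past the threshold. The uninduced replicates were far apart, and without uninduced replicate 2 the log2 fold change against Control was -1.85 and past the threshold. Sema4b (chromosome 7, 80186841 to 80226527, plus strand) had 35.7 and 35.8 CPM in induced libraries, 22.4 and 40.7 CPM in uninduced libraries, and 33.0 and 27.6 CPM in Control libraries. The uninduced libraries of Sema4b enclosed all other values. The log2 fold change for uninduced against Control was 0.06 (SE 0.321), and its sign turned with median-ratio factors, at -0.01.

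Sema7a (chromosome 9, 57940112 to 57962865, plus strand), which encodes a GPI-anchored semaphorin that binds plexin C1 and integrins containing the beta 1 chain, was low and variable. It had 4.33 and 0.745 CPM in induced libraries, 1.22 and 4.79 CPM in uninduced libraries, and 4.64 and 13.8 CPM in Control libraries. The highest value was that of Control replicate 2, the library with the high T-cell marker sum. The log2 fold change was -1.58 (SE 1.00) for uninduced against Control and -1.84 (SE 1.00) for induced against Control, and neither passed.

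Among the receptors, Plxnc1 (ENSMUSG00000074785, chromosome 10, 94790866 to 94944835, minus strand), which encodes the receptor of SEMA7A, was lowest in Control libraries and high in both other groups. It had 134 and 112 CPM in induced libraries, 169 and 127 CPM in uninduced libraries, and 38.7 and 42.6 CPM in Control libraries. The induced and uninduced ranges overlapped, and both lay above Control. It was 3.65-fold higher in uninduced than in Control libraries (log2 fold change 1.87, SE 0.221) and 3.03-fold higher in induced than in Control libraries (1.60, SE 0.219). For induced against uninduced the log2 fold change was -0.27 (SE 0.211) and did not pass. The induced against Control value no longer passed without Control replicate 1 (1.58), without Control replicate 2 (1.63) or with total counts as the only scaling (1.52), while the uninduced against Control value passed under each of the alternatives run. The mast cell and basophil, myeloid and erythroid sums given above likewise had their highest mean in uninduced and their lowest in Control libraries. So did the B-lineage, natural killer and innate lymphoid, and conventional dendritic cell sums, but there uninduced replicate 1 was not above both induced libraries. In that order, uninduced replicates 1 and 2 had 30.3 and 761, 79.5 and 116, and 11.6 and 121 CPM. Induced replicates 1 and 2 had 8.92 and 40.3, 82.9 and 70.0, and 53.2 and 61.6 CPM. The part of any of these cell types in the Plxnc1 levels was not tested. Plxnc1 shares 115 exon bases with Gm48718, an unclassified transcript on the same strand that is not among the genes in the count data.

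Plxnb2 (ENSMUSG00000036606, chromosome 15, 89155549 to 89180788, minus strand), which encodes a receptor for class 4 semaphorins, was lowest in the uninduced libraries. It had 53.3 and 53.0 CPM in induced libraries, 19.3 and 23.6 CPM in uninduced libraries, and 62.7 and 47.2 CPM in Control libraries. The uninduced libraries lay below all others, and the induced libraries fell between the Control libraries. Plxnb2 was 2.56-fold lower in uninduced than in Control libraries (log2 fold change -1.36, SE 0.256) and 2.47-fold higher in induced than in uninduced libraries (1.31, SE 0.256). For induced against Control the log2 fold change was -0.05 (SE 0.248). Without Control replicate 1 the uninduced against Control value was -1.10 and did not pass. Without induced replicate 1 or 2 the induced against uninduced value was 1.32 or 1.38 and did not pass.

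Plxnd1 (chromosome 6, 115954811 to 115995005, minus strand), which encodes the receptor for SEMA3E and a partner of SEMA4A, had 67.8 and 59.4 CPM in induced libraries, 39.1 and 62.5 CPM in uninduced libraries, and 55.5 and 115.7 CPM in Control libraries. The 2 Control libraries enclosed both induced values and uninduced replicate 2, and the high one was Control replicate 2. The log2 fold change for uninduced against Control was -0.74 (SE 0.353), and none of the 3 comparisons passed.

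Both neuropilins were low. Nrp1 (chromosome 8, 128358604 to 128503363, plus strand) had 8.57 and 9.32 CPM in induced libraries, 21.9 and 10.3 CPM in uninduced libraries, and 10.5 and 14.9 CPM in Control libraries. The induced libraries had the 2 lowest values, with a log2 fold change of -0.84 (SE 0.455) against uninduced and -0.50 (SE 0.454) against Control, and neither passed. Nrp2 (chromosome 1, 62703285 to 62818695, plus strand) had 1.85 and 1.86 CPM in induced libraries, 6.43 and 4.57 CPM in uninduced libraries, and 0.761 and 2.83 CPM in Control libraries, from 10 to 41 counts a library. Its uninduced libraries were the 2 highest (log2 fold change 1.64, SE 0.959, against Control; -1.56, SE 0.945, for induced against uninduced), and neither value passed.

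**Figure D2:**
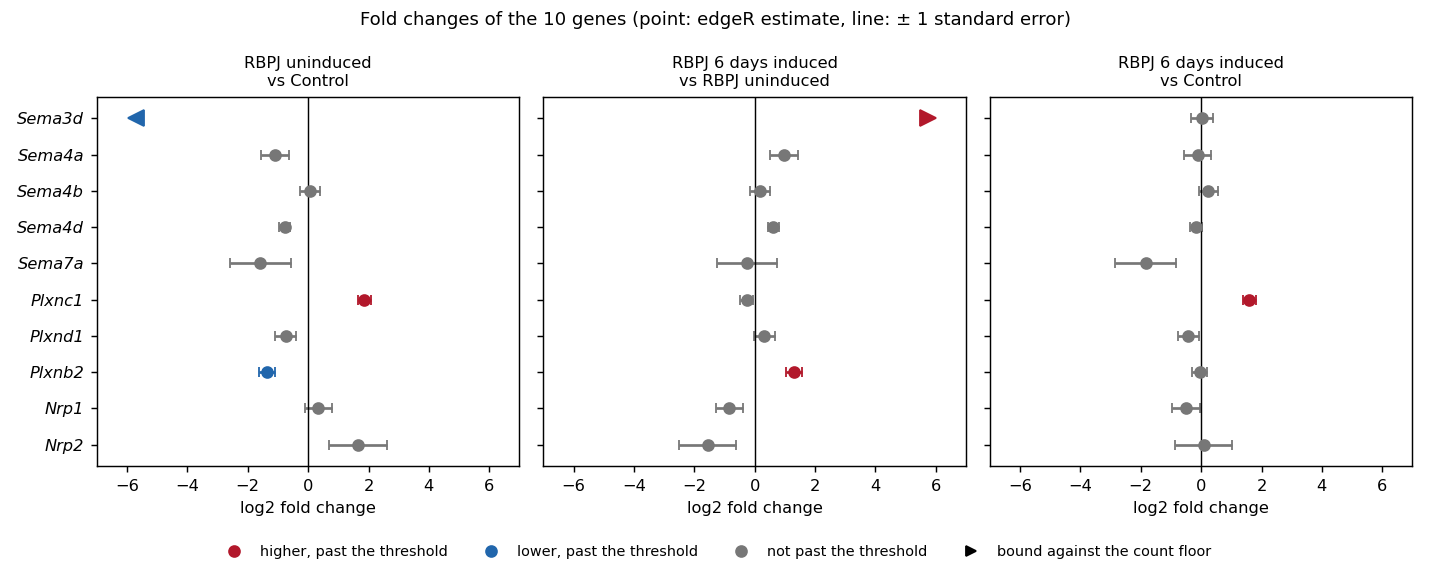
log2 fold changes of the 10 genes in the 3 comparisons, with points for edgeR estimates and lines for 1 SE either side; arrowheads for Sema3d stand at its lower bounds of 52.5-fold and 54.0-fold, and colour marks genes past the threshold. In induced against Control only Plxnc1 (1.60) passed, and Sema3d (0.04) and Plxnb2 (-0.05) lie near 0.

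All 10 genes passed the filter on low counts and entered the test. In uninduced against Control, 1 of the 10 was higher (Plxnc1) and 2 were lower (Sema3d and Plxnb2), where 5.42% of all genes passed, 2.49% higher and 2.93% lower. In induced against uninduced, 2 of the 10 were higher (Sema3d and Plxnb2) and none was lower, where 1.96% of all genes passed, 1.55% higher and 0.413% lower. In induced against Control, 1 of the 10 was higher (Plxnc1) and none was lower, where 0.187% of all genes passed. Since the genes were picked with these contrasts known, nothing is read from their share. The median log2 fold change of the 10 genes was -0.76, 0.25 and -0.08 in the 3 comparisons in that order, against -0.02, -0.03 and -0.02 over all genes tested. Setting Sema3d at its bound leaves these medians as they are, since it is the most extreme value in the first 2.

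Counted by libraries alone, the groups did not overlap in 6 of the 10 genes for uninduced against Control, with 2 higher and 4 lower, where 44.3% of all genes did not overlap (22.1% higher, 22.2% lower). The same count was 6 of 10 for induced against uninduced, with 4 higher and 2 lower, where 46.6% of all genes did not overlap (24.8% higher, 21.8% lower). It was 5 of 10 for induced against Control, with 2 higher and 3 lower, where 37.5% did not (20.8% higher, 16.8% lower). The 4 genes lower in both uninduced libraries than in both Control libraries were Sema3d, Sema4a, Sema4d and Plxnb2, and the same 4 were higher in both induced than in both uninduced libraries; these comparisons share the uninduced libraries. A fit without RBPJ uninduced replicate 2 and Control replicate 2 together was chosen after seeing the data. It leaves a single library in each of those groups, assumed to vary like the induced ones. Nothing is therefore read from the counts of genes past the threshold in this fit. Its median log2 fold change over all genes was -0.02, 0.13 and 0.06 in the 3 comparisons. With all libraries these medians were -0.02, -0.03 and -0.02.

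To set levels of different genes side by side, CPM were divided by the length of each gene's exons. In Control libraries Sema4d was the most abundant at 23.3 CPM per kb, followed by Plxnd1 at 11.7, Plxnb2 at 7.12, Sema4b at 5.37 and Plxnc1 at 4.87 CPM per kb. Sema7a, Sema3d and Sema4a followed at 2.80, 2.62 and 2.53 CPM per kb, and Nrp1 and Nrp2 came last at 1.30 and 0.152 CPM per kb. Among neighbours in this order, the Control libraries of Sema4d and Plxnd1, of Plxnb2 and Sema4b, of Plxnc1 and Sema7a, of Sema4a and Nrp1, and of Nrp1 and Nrp2 did not overlap, and those of the other neighbours did. In uninduced libraries the order was led by Plxnc1 at 17.8 CPM per kb, with Sema4d next at 13.6 CPM per kb, and their ranges did not overlap. In induced libraries Sema4d was again first at 20.9 CPM per kb, with Plxnc1 second at 14.8 CPM per kb.

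Sema3d and Plxnb2 differed in what was counted in the uninduced libraries. Plxnb2 had 111 and 212 counts there, whereas Sema3d had none. A shorter gene model inside Sema3d, Gm42909, an unclassified transcript on the same strand that shares no exon base with it, had 13 and 11 counts in induced libraries, 0 and 0 counts in uninduced libraries, and 18 and 5 counts in Control libraries. It was named after its values were seen. It too was at 0 in both uninduced libraries, and whether its reads come from Sema3d RNA was not tested.

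The other class 3 semaphorin genes on chromosome 5 did not share the level of Sema3d. Sema3a, Sema3e and Sema3c lie downstream of it on the same strand, starting at 13125414, 14025276 and 17574281. Sema3a had 0.265 and 2.42 CPM in induced libraries, 2.96 and 0.557 CPM in uninduced libraries, and 0 and 2.48 CPM in Control libraries. Sema3e reached at most 3.89 CPM and Sema3c at most 3.30 CPM in any library. Hgf, which encodes a growth factor that can bind neuropilins and lies between Sema3e and Sema3c, had 22.6 and 21.4 CPM in induced libraries, 29.4 and 8.25 CPM in uninduced libraries, and 16.7 and 12.9 CPM in Control libraries. These 4 genes were chosen from the region by family or by neuropilin binding, with their values known. Each had counts in at least 1 uninduced library.

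The families have 31 genes in the annotation: 20 semaphorins, 9 plexins and 2 neuropilins. Of the other 21, 20 passed the filter on low counts, all but Sema4f. They were low, and 11 reached no more than 6.15 CPM in any library. In uninduced against Control, 1 of the 20 was higher, Plxna1, and none was lower. Of all genes tested, 5.42% passed, 2.49% higher and 2.93% lower. A single call is near that share, and nothing is read from it about the families. At an unadjusted p under 0.05, 1 of the 20 was lower, and none was lower with DESeq2. Plxna1 encodes a plexin that pairs with neuropilins for class 3 semaphorins. Plxna1 had 9.27 and 9.04 CPM in induced libraries, 15.6 and 33.8 CPM in uninduced libraries, and 4.72 and 6.37 CPM in Control libraries. Its log2 fold change for uninduced against Control was 2.17 (SE 0.466, edgeR adjusted p = 0.0301). The log2 fold change ran from 1.498 to 2.57 over the settings run, and the call was lost without either Control library (adjusted p = 0.163 without Control replicate 1, 0.102 without replicate 2), without uninduced replicate 2 (0.0648) and with the 4 compared libraries only (0.113). For induced against uninduced it was -1.44 (SE 0.448, edgeR adjusted p = 0.154). It had, like Plxnc1, its lowest 2 values in Control libraries.

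None of the 20 passed in induced against uninduced, where 1.96% of all genes did, or in induced against Control, where 0.187% did. For induced against uninduced, 1 was lower at an unadjusted p under 0.05, and 0 passed with DESeq2. For induced against Control both of these counts were 0. The median log2 fold change of the 20 was -0.85, -0.06 and -0.50 in the 3 comparisons. Control replicate 2 had a count in all 21 of these genes at 5311391 total counts, while 7 were at 0 in Control replicate 1 at 12932928, and 14 of the 21 had their highest CPM in Control replicate 2. The part of that library in the medians was not tested.

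**Figure D3:**
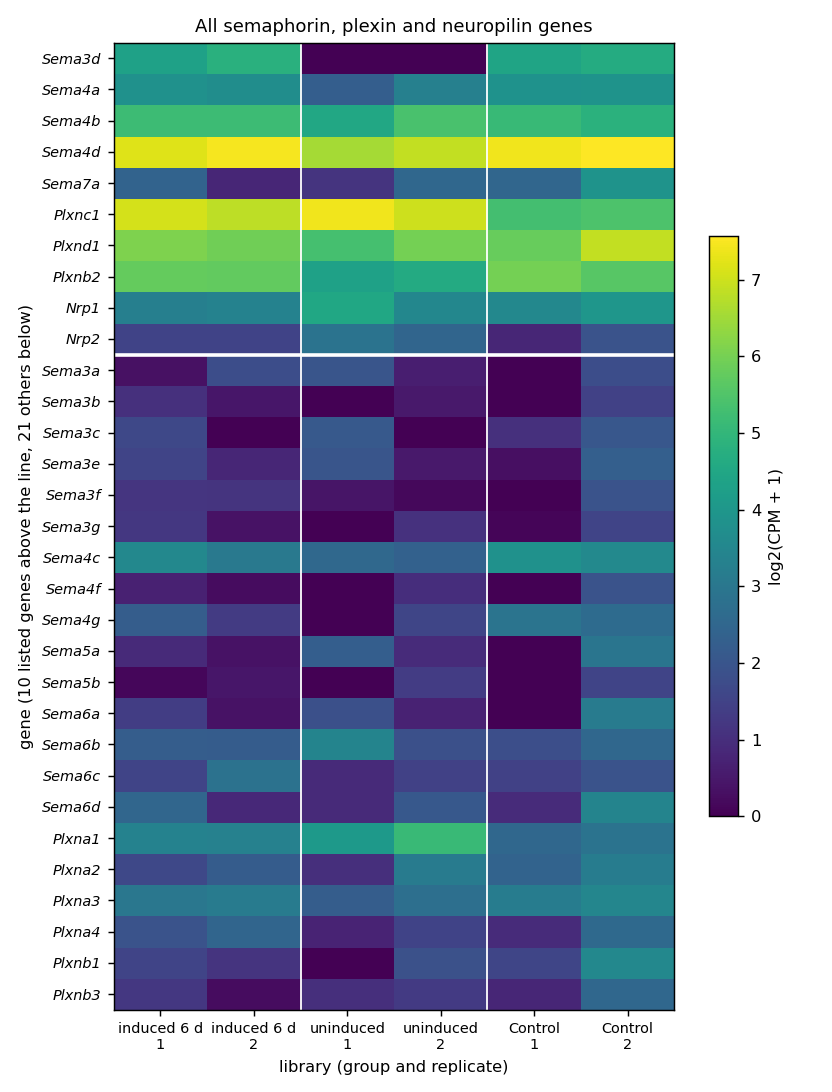
log2(CPM + 1) of all 31 semaphorin, plexin and neuropilin genes (rows; the 10 genes described above the white line, the other 21 under it) in the 6 libraries (columns, with white lines between groups). Sema4d and Plxnc1 are the brightest rows, Sema3d is at 0 in both uninduced libraries, and the Control replicate 2 column is brighter than Control replicate 1 for many of the lower rows.

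Genes that act with these receptors were described from lists of co-receptors and alternative receptors (11 genes, 10 tested), VEGF-family ligands of neuropilins (5 genes, 3 tested) and effectors inside the cell (13 genes, all tested). Of the 26 tested, none was higher and 1 was lower in uninduced against Control, where 2.49% of all genes were higher and 2.93% lower. Their median log2 fold change was 0.27. At an unadjusted p under 0.05, 3 were higher and 2 lower, and with DESeq2 1 was higher and 2 lower. In induced against uninduced, 1 was higher and none was lower, where 1.55% of all genes were higher and 0.413% lower. At an unadjusted p under 0.05 these counts were 2 and 1, and with DESeq2 1 and 0. In induced against Control none passed, where 0.187% of all genes did (0 at an unadjusted p under 0.05, and 0 with DESeq2). With a single call in each of the first comparisons, nothing is read from these counts about the lists. The gene that passed was Mical1 both times. It encodes an oxidoreductase that acts on actin filaments and is known as a plexin effector from work in flies and mammals.

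Mical1 had 117 and 136 CPM in induced libraries, 61.6 and 60.9 CPM in uninduced libraries, and 118 and 99.9 CPM in Control libraries. The uninduced libraries lay below all others, as for Plxnb2. The log2 fold change was -0.83 (SE 0.195, edgeR adjusted p = 0.0414) for uninduced against Control and 1.05 (SE 0.196, edgeR adjusted p = 0.0313) for induced against uninduced. Over the settings run these values ranged from -1.04 to -0.68 and from 1.00 to 1.18. Both calls were lost with total counts as the only scaling, at -0.93 and 1.07 (edgeR adjusted p = 0.0595 and 0.0625) and with the 4 compared libraries only (0.127 and 0.0837). Without Control replicate 1 the uninduced against Control call was also lost (edgeR adjusted p = 0.261), as it was without Control replicate 2 (0.0554) and without induced replicate 1 (0.106). The induced against uninduced call was lost without induced replicate 1 (edgeR adjusted p = 0.109) and without induced replicate 2 (0.194).

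The gene of each of the 3 lists with the highest mean CPM over all 6 libraries did not pass. Itgb1, the integrin beta 1 chain that SEMA7A binds, averaged 162 ± 5.18 CPM in induced, 193 ± 37.1 CPM in uninduced and 137 ± 2.20 CPM in Control libraries (SD, n = 2 each). Its log2 fold change for uninduced against Control was 0.49 (SE 0.189, edgeR adjusted p = 0.19). Rac1, a small GTPase that binds plexin B1, averaged 108 ± 12.8 CPM in induced, 119 ± 26.0 CPM in uninduced and 97.8 ± 2.47 CPM in Control libraries (SD, n = 2 each), with a log2 fold change of 0.29 for uninduced against Control (edgeR adjusted p = 0.548). Vegfb, a ligand of NRP1, averaged 14.7 ± 2.35 CPM in induced, 28.4 ± 1.99 CPM in uninduced and 18.2 ± 0.969 CPM in Control libraries (SD, n = 2 each). Vegfb was highest in both uninduced libraries, with a log2 fold change of 0.64 against Control (edgeR adjusted p = 0.312) and of -0.94 for induced against uninduced (edgeR adjusted p = 0.171).

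Of 9935 protein-coding genes with a mean log2 CPM of at least 2, those with a course over the 6 libraries most like that of Sema3d, by Pearson correlation of log2(CPM + 1), were Zfp868 (r = 0.998), Nit1 (0.997), Zfp219 (0.996), Cd96 (0.996) and Ctla2b (0.995). Cd96, which encodes a surface receptor of T and natural killer cells, had 26.2 and 26.7 CPM in induced libraries, 3.48 and 4.12 CPM in uninduced libraries, and 24.2 and 31.0 CPM in Control libraries. Its uninduced libraries were the lowest, yet above 0. Those most like Sema4d, the member with the highest mean, were Il21r (r = 0.994), Sin3b (0.994), Rnf122 (0.992), Ppcdc (0.991) and Gabarapl1 (0.991). Il21r, which encodes the interleukin 21 receptor, had 18.2 and 23.9 CPM in induced libraries, 7.13 and 12.7 CPM in uninduced libraries, and 24.1 and 28.7 CPM in Control libraries. The correlations describe 6 libraries in 3 groups, and any gene low in both uninduced libraries and level in the other 4 has a high r with Sema3d.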

How the data were processed

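The authors deposited raw read counts by Ensembl gene ID, as whole numbers, for each library. Per the submitters' processing notes, HISAT2, StringTie and HTSeq were used with mm10. Versions, strand setting and annotation were not given in the sources used here. Without a strand setting, it is not known whether reads of genes that overlap on opposite strands were separated. Names, coordinates and exon lengths came from GENCODE M21 (47224 of 47729 IDs matched), promoters from RefSeq (GRCm38.p6).

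Counts were tested in edgeR 4.0.16 (R 4.3.3; glmQLFit, glmQLFTest) with a mean per group over all 6 libraries and 3 residual degrees of freedom, after TMM scaling (factors 0.824 to 1.13) and filterByExpr (minimum count 10, minimum total 15). CPM use the TMM-scaled totals. A fold against a group at 0 is a bound against 3 counts per library. Replicates differed by more than sampling noise (chi-square per degree of freedom 16.5 in induced, 51.8 in uninduced and 19.7 in Control libraries), so the shared spread may be too small for uninduced libraries, and no library was counted as a duplicate. DESeq2 1.42.0, other scalings, filters, fits of 4 libraries, a replicate block and leaving out libraries were alternatives.

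The 10 genes and the lists were chosen with earlier results of these data known. Named beside the 10 genes were Rbpj, list genes past the threshold (up to 4 per list and comparison), the most abundant tested gene of each list, and the 5 genes most like Sema3d and most like the most abundant of the 10. Gm42909, the chromosome 5 neighbours, Sema4f and marker genes were named outside this rule.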

Additional observations from a re-analysis of the deposited data

How the results depend on the processing

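Counts of genes past the threshold depended on the setting. The number of genes tested did too, at 18174 in the main fit and 35696 without the low-count filter. It was 15435 to 16430 with 4 libraries only and 19233 to 21302 without 1 library. The 10 genes were picked with these contrasts known, so nothing is read from their counts. For uninduced against Control, all genes numbered 985, against 1859 with DESeq2, 1540 without the low-count filter, 219 with 4 libraries only, and 445 to 2000 without one library. The 10 genes ran from 2 to 5 without one library. The other family genes were 0 with 4 libraries and 0 to 2 without one. The partner genes were 2 with median-ratio factors, 0 with total counts, 3 with DESeq2, 4 without the filter, 0 with 4 libraries, 2 with the replicate block and 0 to 6 without one library. For induced against uninduced, all genes numbered 357, against 1238 with DESeq2, 989 without the filter, 71 with 4 libraries and 171 to 1374 without one library. There the 10 genes were 1 with 4 libraries and 1 to 2 without one. The other family genes were 0 to 1 without one library. The partner genes were 0 with total counts, 2 without the filter, 0 with 4 libraries and 0 to 4 without one library. For induced against Control, all genes numbered 34, against 228 with DESeq2, 304 without the filter, 177 with 4 libraries, 108 with the replicate block and 30 to 337 without one library. The 10 genes were 0 with total counts and 0 to 1 without one library, and partner and other family genes stayed at 0 there. Without uninduced replicate 2 and Control replicate 2 together, uninduced against Control had 6 of the 10 genes, 5 other family genes, 9 partner genes and 3673 of all genes. In that fit induced against uninduced had 7, 1, 6 and 3796, and induced against Control had 4 partner genes and 908 of all genes. That fit was chosen after seeing the data and leaves a single library in each of the uninduced and Control groups. Nothing is therefore read from its counts. The cause of the shifts between settings was not tested.

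Differences between replicates 1 and 2 correlated across genes at 0.0156 for induced and uninduced libraries. They correlated at 0.0145 for induced and Control and at -0.0251 for uninduced and Control libraries. No pairing by replicate number showed in these values, but they cannot exclude it, since uninduced replicate 2 and Control replicate 2 stood apart. With the replicate block, Sema4d passed in uninduced against Control (-0.79). With the 4 compared libraries only, Plxnb2 did not pass in uninduced against Control (-1.38) or in induced against uninduced (1.31). Total counts as the only scaling moved the median log2 fold change of all genes in uninduced against Control to -0.13, against -0.02 with TMM. With 2 libraries per group, genes of low count such as Sema7a and Nrp2 had standard errors of about 1 on the log2 scale, which limits what differences could be detected there.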
